A study of Homo sapiens with 4 samples.

Results

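The genes of SR proteins and of the related TRA2 splicing activators were examined for the inclusion of their poison exons in U87MG cells treated with a decoy for RBFOX proteins. The 10 genes were SRSF1, SRSF2, SRSF3, SRSF4, SRSF5, SRSF6, SRSF7, SRSF11, TRA2A and TRA2B, and every splicing event that the deposited tables assign to them was taken, which gave 111 of the 121269 events of the series and 10 of its 12219 genes. Of these, 76 were skipped exon events, 27 were mutually exclusive exons, 4 were alternative 3′ splice sites, 1 was an alternative 5′ splice site and 3 were retained introns. The 4 libraries came from U87MG, a glioblastoma cell line, and the comparison asks which splice forms differ when an RNA decoy occupies RBFOX1 and RBFOX2. In 2 libraries the cells were transfected with RBFOXi, an RNA oligonucleotide made of tandem RBFOX motifs, and in 2 with SCRM, a scrambled control oligonucleotide. All 4 received 2.5 µM of oligonucleotide with lipofectamine 2000. A cy5 tag is labelled for RBFOXi replicate 1 alone, so the tag and that replicate cannot be told apart.

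SR proteins bind exonic enhancers and recruit the spliceosome, and TRA2A and TRA2B bind GAA-rich enhancers. Most of these genes carry a poison exon, a conserved cassette that brings a premature stop codon into the message, so that the inclusion form is open to nonsense-mediated decay. The proteins often promote inclusion of their own poison exon and so limit their own amount. Because the inclusion form is degraded, the level seen in RNA-seq is the balance between its splicing and its decay.

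The value reported is the PSI (proportion spliced in), which is 0 where the exon is always skipped and 1 where it is always included. In each library it was computed from the deposited inclusion and skipping read counts, each divided by the effective length of its form. Delta PSI is the RBFOXi mean less the SCRM mean. The change was tested on the log2 odds of inclusion (log2 of the length-scaled ratio of inclusion to skipping counts, with a pseudocount of 0.5), with limma across all genes and Benjamini-Hochberg adjustment within each type of event. An event was called at an adjusted p under 0.05 where delta PSI was also 0.1 or more in size. Counts over skipped exon events ranged from 114415530 to 136097319 per library over all genes and from 121168 to 204160 over the 10 genes, with SCRM replicate 1 the shallowest. Each marker gene is represented by its skipped exon event with the most counts, not by a gene total. The mesenchymal markers VIM, CD44, FN1 and TNC had 8394 to 185009 counts per library. The only value under 18796 was TNC in SCRM replicate 1. GFAP, S100B, AQP4, RBFOX3, STMN2, MOG, PTPRC, CAV1 and CHI3L1 had no skipped exon event, the neuronal SYP and SNAP25 had 24 to 808 counts, MBP had 0 to 25 and the lysosomal CD68 had 45649 to 65957.

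The skipped exon events covered 43 exons of 9 of the genes, and 28 of these had enough counts to be tested. Forms of an exon that differ at either end count separately in both numbers. An exon was classed by reading it in the annotated frame of the coding exon before it. Of the tested exons, 9 held an in-frame stop and matched no whole coding segment of a protein-coding transcript, with 2 ends of the same TRA2A exon counted once. Such exons are called outside coding sequence below, although partial coding segments and those of decay transcripts were not examined. The 104 nt cassette of SRSF2 was added to these 9. It lies after the end of the coding sequence of its gene and is annotated only in transcripts of the decay and retained intron classes. The resulting 10 exons, of 62 to 456 nt in 8 genes, are called poison exons below. The 136 nt and 184 nt exons of SRSF4, annotated only in decay transcripts, were not in the set. The annotation places 8 of the 10 in a transcript of the nonsense-mediated decay class. The exceptions were the TRA2A exons. The 90 nt exon occurs in transcripts annotated as protein coding, but matches no whole coding segment of such a transcript. The 312 nt form occurs in a transcript with no defined coding sequence. The shorter form of 301 nt occurs in 1 decay transcript and in 1 transcript annotated as protein coding. SRSF1 and SRSF5 had no exon in the set.

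The stretch from the first base of an exon to its in-frame stop shows how early the reading frame ends. The sequences are those of the strand of the gene in hg19, with the stop codon in capitals. The 456 nt exon of SRSF3 lies at chr6:36567598-36568053, that of SRSF7 (449 nt) at chr2:38976040-38976488, that of SRSF6 (268 nt) at chr20:42087793-42088060, that of TRA2B (276 nt) at chr3:185649365-185649640 and that of TRA2A (312 nt) at chr7:23561740-23562051. The exon letters up to the stop were as follows.
SRSF3: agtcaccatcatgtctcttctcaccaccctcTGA
SRSF7: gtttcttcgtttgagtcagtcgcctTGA
SRSF6: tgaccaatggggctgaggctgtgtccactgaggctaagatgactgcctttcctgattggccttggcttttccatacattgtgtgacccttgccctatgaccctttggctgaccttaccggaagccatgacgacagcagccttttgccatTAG
TRA2B: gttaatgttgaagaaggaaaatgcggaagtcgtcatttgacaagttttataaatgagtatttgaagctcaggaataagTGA
TRA2A: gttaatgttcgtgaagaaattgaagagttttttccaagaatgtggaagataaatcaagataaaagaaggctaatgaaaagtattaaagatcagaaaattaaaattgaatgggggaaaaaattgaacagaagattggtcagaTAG

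In SRSF3 and SRSF7 the stop began at base 32 and base 26, so that 422 and 421 nt of the exon followed it. In TRA2B it began at base 79, in TRA2A at base 142 and in SRSF6 at base 150. The TRA2A and TRA2B exons opened with the same 9 bases, gttaatgtt. Over the whole exon, the hexamer GAAGAA, a form of the GAA-rich enhancer letters, occurred at 4 positions in TRA2A, overlaps included, and at 3 in TRA2B. It occurred at 3 or more positions in 1.37% of the 3352 tested exons of 200 to 500 nt, and SRSF7 held it at 1 position.

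**Figure D1:**
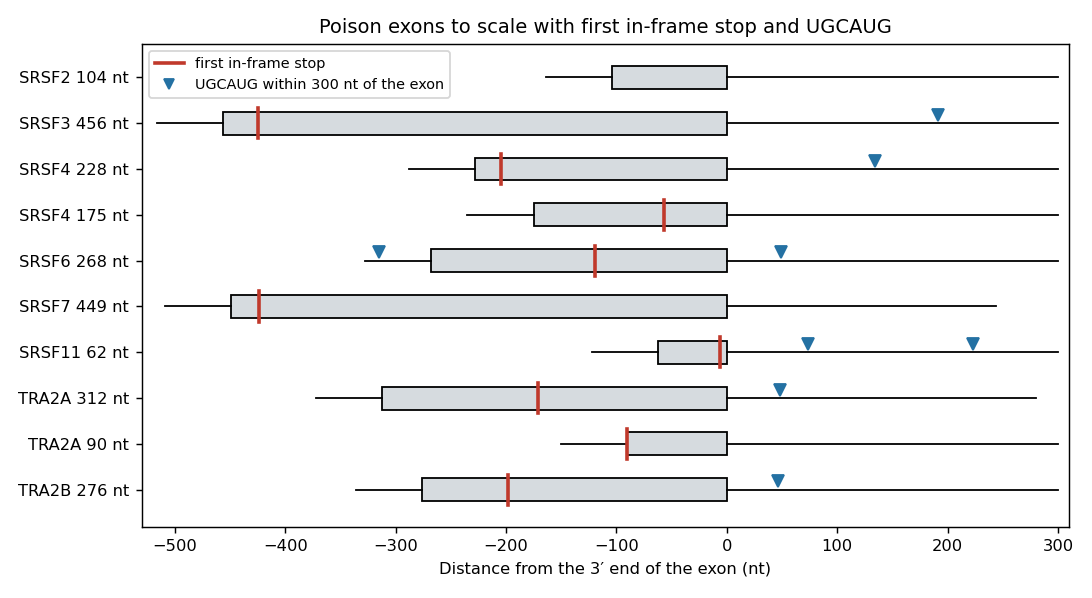
Map of the 10 poison exons drawn to scale (x axis, distance in nt from the 3′ end of the exon; boxes, exons; lines, adjoining intron, at most 300 nt downstream). Red bars mark the first in-frame stop, which the SRSF2 cassette lacks because the coding sequence ends before it, and blue triangles mark UGCAUG, present downstream of 6 of the 10 exons.

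No event of the 10 genes was called by limma, in any of the 5 types. Among the 36 tested skipped exon events the count was 0, against 0.111% of the tested skipped exon events of all genes. The smallest adjusted p of any of the 71 tested events of the genes was 0.0771, for SRSF3. At an unadjusted p under 0.05 there were 7 of the 36 skipped exon events, against 3.40% of those of all genes, and several of the 7 share an exon and its reads. Fisher's exact test on summed counts, which ignores the spread between replicates, called 1 skipped exon event of the genes, in TRA2A, against 0.800% of all, and a quasi-binomial F test added after seeing the data called 0.

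The poison exons nevertheless lay mostly on the higher side after RBFOXi. Each exon is represented by its tested event with the most counts. The group mean was higher in 8 of the 10 exons. Both RBFOXi libraries lay above both SCRM libraries in 7, and the groups overlapped in 3, with no exon wholly below by that event. A second tested event of the 90 nt TRA2A exon did lie wholly below. Among the 30617 tested exons of all genes, 14.0% had both RBFOXi libraries above and 16.9% had both below. The median delta PSI of the 10 exons was 0.0281 and the median change in log2 odds was 0.64, against 0.05 over all tested exons. The set was fixed with its values known, including the addition of SRSF2. Without SRSF2, 7 of 9 means were higher, 6 exons had both RBFOXi libraries above, and the median change was 0.60. The median change of the 10 was 0.35 without SCRM replicate 2, 0.45 without RBFOXi replicate 2, 0.68 without SCRM replicate 1 and 0.82 without RBFOXi replicate 1. In-frame stop exons outside coding sequence in other genes also leaned to the higher side. Of these 1602 exons, 21.5% had both RBFOXi libraries above, and their median change in log2 odds was 0.22. The 912 of them with a mean PSI under 0.1 had a median of 0.28. With 2 libraries a group, an exact permutation test of a single exon cannot go below p = 0.333.

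**Figure D2:**
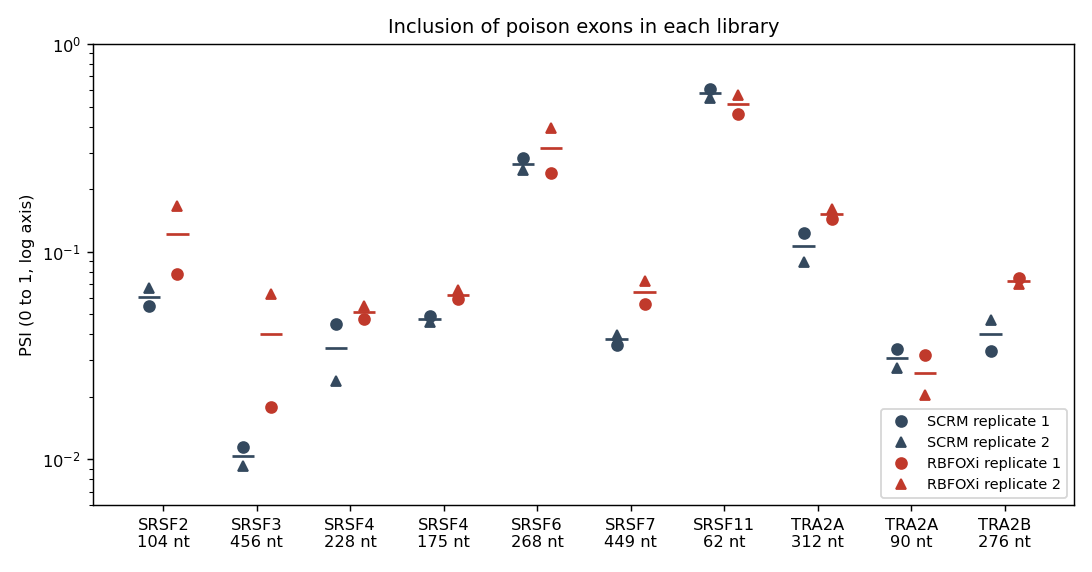
PSI of the 10 poison exons in each library (y axis, log scale; circles, replicate 1; triangles, replicate 2; short lines, group means; dark, SCRM; red, RBFOXi). The RBFOXi points lie above both SCRM points for SRSF2, SRSF3, both SRSF4 exons, SRSF7, the 312 nt TRA2A exon and TRA2B, and overlap them for SRSF6, SRSF11 and the 90 nt TRA2A exon.

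SRSF3, one of the smallest SR proteins, showed the largest relative difference in the set. Its 456 nt exon had a PSI of 0.0179 and 0.0623 in the RBFOXi libraries and 0.0114 and 0.00928 in the SCRM libraries. The groups did not overlap, but RBFOXi replicate 2 stood far above replicate 1. The means were 0.0401 ± 0.0314 and 0.0104 ± 0.00152 (SD, n = 2 each), a ratio of 3.87. The change in log2 odds was 1.74 (SE 0.37, 95% interval 0.97 to 2.51), with an unadjusted p of 0.000107 and an adjusted p of 0.0771 in limma. This interval uses a spread moderated across all events rather than the gap between these replicates alone. Inclusion rested on 445 and 1767 reads after RBFOXi and on 281 and 268 after SCRM. Without RBFOXi replicate 2 the change was 0.80 with an adjusted p of 1.00, and without RBFOXi replicate 1 it was 2.67.

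TRA2B has a poison exon that is an established target of its own protein. PSI was 0.0747 and 0.0696 after RBFOXi and 0.0331 and 0.0470 after SCRM. Both RBFOXi libraries were higher, and the gap between the groups exceeded the gap within either. The means were 0.0721 ± 0.00364 and 0.0401 ± 0.00978 (SD, n = 2 each), a ratio of 1.80. The log2 odds differed by 0.92 (95% interval 0.43 to 1.41), with an unadjusted p of 0.000748 and an adjusted p of 0.322 in limma. The quasi-binomial F test, whose spread was also moderated toward a trend over all events, gave an adjusted p of 0.0325. The delta PSI was 0.0321, under the minimum of 0.1.

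SRSF7 is closely related to SRSF3 and has a poison exon of nearly the same length. PSI was 0.0561 and 0.0724 after RBFOXi and 0.0357 and 0.0399 after SCRM. The groups did not overlap. The means were 0.0643 ± 0.0115 and 0.0378 ± 0.00298 (SD, n = 2 each), and the log2 odds differed by 0.80 (95% interval 0.34 to 1.25), with an unadjusted p of 0.00136 and an adjusted p of 0.465 in limma. The quasi-binomial F test gave an adjusted p of 0.0282, and TRA2B and SRSF7 were the only exons of the set under 0.05 in that test. It gave 0.408 for SRSF3, 0.872 for SRSF2 and 0.212 for the 312 nt exon of TRA2A. The SRSF7 exon had 741 to 1936 inclusion reads per library.

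SRSF2, a classical SR protein needed for exon recognition, regulates its own message through splicing in the 3′ UTR. Its 104 nt cassette at chr17:74731854-74731957 had a PSI of 0.0780 and 0.167 after RBFOXi and 0.0547 and 0.0667 after SCRM. Both RBFOXi libraries were higher, with replicate 2 far above the rest. The means were 0.122 ± 0.0626 and 0.0607 ± 0.00848 (SD, n = 2 each), and the log2 odds differed by 1.01 (95% interval 0.38 to 1.65), with an unadjusted p of 0.00320 and an adjusted p of 0.845 in limma. Without RBFOXi replicate 1 the exon was called, at an adjusted p of 0.00727 and against 0.154% of all tested skipped exon events in the same fit, and without RBFOXi replicate 2 the change was 0.39. The cassette lies inside an intron that is also listed as retained, whose PSI was 0.109 and 0.0959 after RBFOXi and 0.0595 and 0.0884 after SCRM. Here too the groups did not overlap, and the log2 odds differed by 0.54 (95% interval -0.24 to 1.32, unadjusted p = 0.152, adjusted p = 1.00 in limma), and by 0.23 without SCRM replicate 1 and 0.85 without SCRM replicate 2. Both events use the same skipping reads, and reads of the cassette also count as reads of the intron.

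SRSF4, a large SR protein, had 2 exons in the set. The 228 nt exon at chr1:29486376-29486603, with its stop at base 24, had a PSI of 0.0475 and 0.0549 after RBFOXi and 0.0446 and 0.0238 after SCRM. The 175 nt exon at chr1:29492402-29492576, with its stop at base 119, had a PSI of 0.0592 and 0.0652 after RBFOXi and 0.0489 and 0.0457 after SCRM. In both the RBFOXi libraries were higher without overlap, by a small margin for SCRM replicate 1 in the 228 nt exon. The log2 odds differed by 0.67 (95% interval -0.10 to 1.44) and by 0.41 (95% interval -0.25 to 1.08), with unadjusted p of 0.0843 and 0.213 and adjusted p of 1.00 in limma. The value of the 228 nt exon was 0.20 without SCRM replicate 2 and 1.14 without SCRM replicate 1.

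SRSF6, the relative of SRSF4 and SRSF5, had the most included poison exon of the classical SR genes. PSI was 0.238 and 0.394 after RBFOXi and 0.282 and 0.248 after SCRM. RBFOXi replicate 1 was the lowest of the libraries and replicate 2 the highest, so the groups overlapped. The means were 0.316 ± 0.110 and 0.265 ± 0.0239 (SD, n = 2 each), and the log2 odds differed by 0.33 (95% interval -0.27 to 0.92, adjusted p = 1.00 in limma). Without RBFOXi replicate 2 the difference had the opposite sign, at -0.20, and without RBFOXi replicate 1 it was 0.85.

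SRSF11, an RS domain protein associated with the spliceosome, had a 62 nt exon at chr1:70696240-70696301 with a stop at base 57. PSI was 0.461 and 0.571 after RBFOXi and 0.610 and 0.551 after SCRM, and the groups overlapped. Each value rested on few reads, with 6 to 23 for inclusion and 3 to 21 for skipping. The log2 odds differed by -0.33 with a 95% interval of -1.90 to 1.24, so neither direction could be told at this depth, and it ran from -0.64 to -0.027 without 1 library.

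TRA2A, the close paralogue of TRA2B, had the 312 nt exon already shown and a form of 301 nt that starts at the same base and ends 11 nt earlier. For the 312 nt form PSI was 0.143 and 0.161 after RBFOXi and 0.124 and 0.0893 after SCRM. The groups did not overlap. The log2 odds differed by 0.60 (95% interval 0.04 to 1.17, unadjusted p = 0.0367, adjusted p = 1.00 in limma), and the 301 nt form, which shares nearly all of its reads, gave 0.63. Without SCRM replicate 2 the difference of the 312 nt form was 0.34.

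The same 301 nt exon is listed a second time, downstream of the 90 nt exon of TRA2A rather than of the first exon, and this event had the largest delta PSI of the tested skipped exon events of the 10 genes. PSI was 0.852 and 0.911 after RBFOXi and 0.764 and 0.744 after SCRM, without overlap. Delta PSI was 0.128 and the log2 odds differed by 1.32 (95% interval 0.15 to 2.49), with an unadjusted p of 0.0289 and an adjusted p of 1.00 in limma. Skipping rested on 13 to 25 reads per library. Fisher's exact test on summed counts gave an adjusted p of 0.0102, and this was the event it called. Inclusion rested on 411 and 642 reads after RBFOXi and on 188 and 324 after SCRM. These include reads in the body of the 301 nt exon, whatever exon comes before it. The 90 nt exon itself had 27 to 55 inclusion reads per library. The PSI of this event therefore does not measure inclusion after the 90 nt exon alone.

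The choice between the 312 nt and 301 nt ends is the only alternative 5′ splice site listed for the genes. The share of the longer form was 0.593 and 0.747 after RBFOXi and 0.809 and 0.788 after SCRM. Both RBFOXi libraries were lower, with replicate 1 far below the rest. Delta PSI was -0.129 and the log2 odds differed by -0.88 (95% interval -2.08 to 0.32, unadjusted p = 0.133, adjusted p = 0.995 in limma), with 7 to 52 reads of the shorter form per library. Without RBFOXi replicate 1 the difference was -0.37 and without RBFOXi replicate 2 it was -1.39. No event of this type was called in any gene (0.00% of 2281). The 90 nt exon of TRA2A itself, at chr7:23570800-23570889, has its stop at base 1. Its PSI was 0.0317 and 0.0204 after RBFOXi and 0.0340 and 0.0275 after SCRM, which overlapped, with a log2 odds difference of -0.28 (95% interval -1.18 to 0.63). A second tested event of this exon, with a 312 nt or 301 nt form as the next exon, rested on 19 to 42 inclusion reads. There PSI was 0.186 and 0.0986 after RBFOXi and 0.235 and 0.225 after SCRM, without overlap. Delta PSI was -0.0874, the lowest of the tested skipped exon events of the genes. The log2 odds differed by -0.91 (95% interval -1.99 to 0.16, unadjusted p = 0.0921 in limma).

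**Figure D3:**
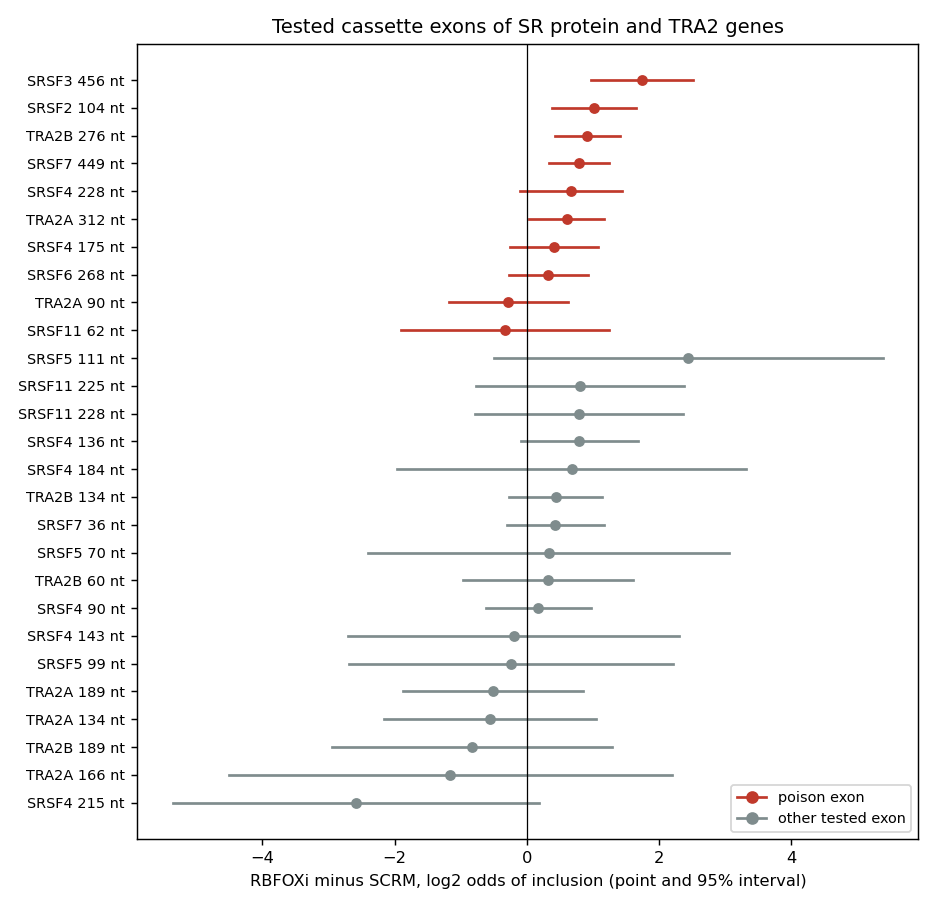
Change in log2 odds of inclusion, RBFOXi minus SCRM, for 27 tested cassette exons of the genes (points, limma estimate; lines, 95% interval; red, the 10 poison exons; grey, 17 other exons). SRSF3 has the highest estimate among the poison exons, 8 of which lie above 0, and the grey intervals all include 0.

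SRSF1, the prototype SR protein, was represented only by a retained intron of 200 nt at chr17:56082962-56083161. PSI was 0.0542 and 0.0390 after RBFOXi and 0.0989 and 0.0416 after SCRM. SCRM replicate 1 stood apart and the groups overlapped. The log2 odds differed by -0.52 (95% interval -1.53 to 0.49, adjusted p = 1.00 in limma), and without SCRM replicate 1 the difference was 0.15. SRSF5 had only exons of its coding sequence. Its 74 nt coding exon holds an in-frame stop when read directly after its 99 nt coding exon. That junction leaves out the 70 nt coding exon between them. The PSI of the 74 nt exon was 0.999 to 1.00 over the 4 libraries, with 1 skipping read in all. The SRSF5 intron listed as retained contains annotated exons, so that its PSI of 0.979 to 1.00 does not measure retention. None of the 3 retained introns was called, as in all genes (0.00% of 1034).

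Outside the poison set, 17 further exons of the genes were tested, and 15 of them had a SCRM mean PSI of at least 0.9. Their delta PSI ran from -0.00510 to 0.0355 and their smallest unadjusted p was 0.0654. Both RBFOXi libraries lay above both SCRM libraries in 4 of them and below in 2, where the shares over all tested exons were 14.0% and 16.9%. The 225 nt and 228 nt forms of the same SRSF11 exon are both among the 4 and share their skipping reads. Of the 27 mutually exclusive exon events, 3 had an unadjusted p under 0.05, against 1.44% of all tested, and 0 were called, against 0.00764% of all tested. In TRA2A the 90 nt exon was set against the 301 nt exon, with a PSI of 0.173 and 0.110 after RBFOXi and 0.220 and 0.243 after SCRM, and against the 312 nt form with a log2 odds difference of -0.88. These use the reads of the cassette events above. The third was an SRSF4 pair, at a PSI of 0.0400 and 0.0546 after RBFOXi and 0.0244 and 0.0294 after SCRM. The 4 alternative 3′ splice sites, in SRSF11 and TRA2A, had a delta PSI between -0.00524 and 0.0133, and 0 were called, as in all genes (0.00% of 3009).

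The change in the poison exons was set against the tested exons of all genes. The SRSF3 exon lay above 94.8% of all tested exons in its change of log2 odds, SRSF2 above 85.2%, TRA2B above 83.0% and SRSF7 above 80.3%. The remaining exons lay lower, down to 34.1% for the 90 nt exon of TRA2A and 31.9% for SRSF11.

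**Figure D4:**
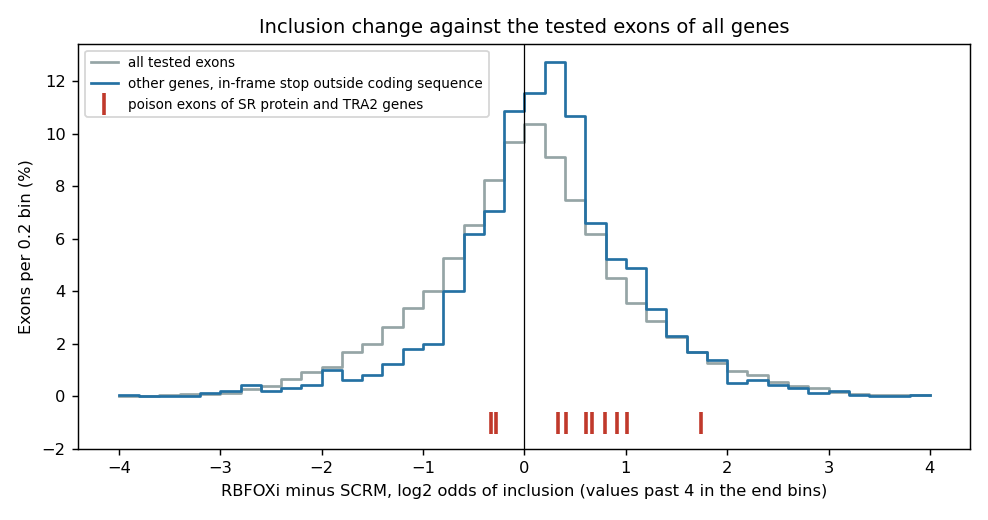
Distribution of the change in log2 odds of inclusion, RBFOXi minus SCRM (x axis), as the percent of exons per bin (y axis), for all 30617 tested exons (grey) and for 1602 in-frame stop exons outside coding sequence in other genes (blue). Red marks show the 10 poison exons, 8 of them above 0.

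The hexamer UGCAUG, the motif that RBFOX proteins bind, was looked for on the strand of the gene in the first 300 nt of intron after each poison exon, or in the whole intron where it is shorter. It was present after 6 of the 10, against 8.36% of all tested exons and 5.68% of the in-frame stop exons outside coding sequence in other genes. The letters, written as DNA with the motif in capitals and 8 bases on each side, were as follows, and the number in each sentence after them is the distance of the first motif base from the exon.
SRSF3: aacttattTGCATGtgcaagat
SRSF4: taaatttaTGCATGttaatctt
SRSF6: tgtagaaaTGCATGtaatcagt
SRSF11: ggatcagaTGCATGactttttt
TRA2A: gatgaattTGCATGattactta
TRA2B: gctaaacaTGCATGcattattt

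The motif began at base 191 of the intron in SRSF3, at base 134 after the 228 nt exon of SRSF4, at base 49 in SRSF6, at base 74 in SRSF11, at base 48 in TRA2A and at base 46 in TRA2B. In SRSF11 a second copy began at base 223. In hg19 the SRSF3 stretch is chr6:36568236-36568257, and that of TRA2B is chr3:185649306-185649327 on the minus strand. SRSF6 also had a copy that ended at base 47 before the exon, and it was the only poison exon with 1 within 300 nt upstream. SRSF2, SRSF7, the 175 nt exon of SRSF4 and the 90 nt exon of TRA2A had none within 300 nt downstream. These matches describe the letters in this window only. The exons with a copy included those with the highest estimated change (SRSF3) and the lowest (SRSF11, which rested on few reads). SRSF2 and SRSF7, without a copy, were among the 4 with the smallest unadjusted p in limma. Whether the motif bears on the change was not tested. Of the 17 other tested exons of the genes, 0 had a copy in the 300 nt downstream.

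Other genes of the same machinery were taken as a list of 40, which held further SR proteins, RS domain and junction proteins, SR protein kinases, and factors of nonsense-mediated decay and the exon junction complex. Of these, 31 had a tested exon, and 0 of their 142 tested skipped exon events were called. Their median change in log2 odds was 0.03 over 111 exons, close to that of all tested exons. Of the 34 exons of decay and junction factors, both RBFOXi libraries lay below both SCRM libraries in 11 and above in 2, and of the 18 exons of kinases they lay below in 2 and above in 3. The 59 exons of RS domain and junction proteins had 7 below and 5 above, and none of the 4 further SR proteins had a tested exon. The shares over all tested exons were 16.9% below and 14.0% above.

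The 3 exons of this list with the smallest unadjusted p were in RSRC2, RBM8A and CLK1. The 78 nt exon of RSRC2, an RS domain protein, holds an in-frame stop and lies outside coding sequence. Its PSI was 0.160 and 0.166 after RBFOXi and 0.0513 and 0.1002 after SCRM, without overlap, and the log2 odds differed by 1.31 (unadjusted p = 0.00238, adjusted p = 0.693 in limma). In CLK1, a kinase of SR proteins, the 91 nt exon had a PSI of 0.720 and 0.661 after RBFOXi and 0.867 and 0.746 after SCRM, without overlap, at a log2 odds difference of -0.96 (adjusted p = 1.00 in limma). The 137 nt coding exon of RBM8A, a core protein of the exon junction complex, was included at 0.996 or more in all libraries.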

How the data were processed

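RNA-seq of 4 U87MG libraries (2 RBFOXi, 2 SCRM) was analysed. The authors aligned reads uniquely to hg19 with STAR 2.4.2a, so that reads shared with paralogues or pseudogenes are not counted, and deposited for each event the raw counts of inclusion and skipping reads and the effective lengths of both forms, made with rMATS. Reads in the body of an exon count as inclusion. The deposited p-values, FDR and inclusion levels of the authors' own comparison were not used.

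An event was tested where no library had fewer than 5 counts, the libraries averaged 20 or more, and either form had 4 or more in all. limma 3.58.1 (R 4.3.3) was fitted to the log2 odds with condition only and the variance trend on the information of the event; the fit was tested on simulated data. Frame class and motifs were read from GRCh37 (hg19) and GENCODE 44 lifted to it, in which 98.63% of the listed exons had the same ends, with Python 3.11.15 and pysam. Where an exon had several events, that with the most counts stood for it. The replicates are described as independent biological replicates. The gap between them, not counting error, is the error given, since PCR reads are not independent molecules.

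The members, lists and tests were chosen with earlier results of these data known. All 10 genes are named. Values are given in full for the in-frame stop exon with the most counts in each gene, for events with a delta PSI of at least 0.1 and no overlap, for the 5 smallest p, and for each retained intron. The poison set of 10 exons was fixed after its values were seen. The 301 nt form of the TRA2A exon was left out of the set and the SRSF2 cassette was added. The 228 nt exon of SRSF4 and the 90 nt exon of TRA2A are named through the set.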

Additional observations from a re-analysis of the deposited data

How the results depend on the processing

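The count of called events in the 10 genes was 0 in every type under every alternative but Fisher's exact test on summed counts (1 skipped exon event) and the fits without 1 library (0 to 1). Over all genes, 44 skipped exon events were called, 18 with a pseudocount of 0.1, 317 by Fisher's exact test and 13 to 61 without 1 library. With the replicate number as a block (replicate block) 133 were called, 0 of them in the 10 genes, although the poison exons of SRSF2, SRSF3, SRSF7 and TRA2B then had an adjusted p under 0.05 with a delta PSI under 0.1. Deviations of libraries with the same number correlated at 0.0944, and the labels do not say what the numbers share. The planned quasi-likelihood test on counts was not run.

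The median delta PSI of the 10 tested in-frame stop exons was 0.0281. These exons count both forms of the TRA2A exon and leave out SRSF2, so they are not the poison set, although the medians match. Their median was 0.0724 with the plain share of counts, 0.0217 with a filter of 1 count per library, and 0.0126 to 0.0321 without 1 library. Of 194 values of the named events under alternatives, 187 kept their direction. This count overstates stability, because several alternatives cannot move the estimate of log2 odds. The count filters, the replicate block and the plain share of counts return the main estimate. Fisher's exact test and the quasi-binomial F test share a single estimate. The log2 odds changes that reversed without 1 library were SRSF6 (-0.20 without RBFOXi replicate 2, range -0.20 to 0.85), the 90 nt TRA2A exon (0.050 without RBFOXi replicate 2, range -0.61 to 0.050), the SRSF1 intron (0.15 without SCRM replicate 1, range -1.19 to 0.15) and the SRSF5 intron (-1.65 without RBFOXi replicate 1, range -1.65 to 1.93). The SRSF5 intron also reversed with a pseudocount of 1 (-0.069) and by Fisher's exact test and the quasi-binomial F test (-0.97 each). The cause was not tested. SRSF3 had an adjusted p of 0.0494 with a pseudocount of 1 and 0.00180 with a filter of 1 count, both at a delta PSI of 0.0297.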

Other observations

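In 8 of the 10 poison exons RBFOXi replicate 2 had a higher PSI than RBFOXi replicate 1, and in 3 of the 10 SCRM replicate 2 had a higher PSI than SCRM replicate 1. Within the RBFOXi group the libraries differed most in SRSF6 (by 0.155), SRSF11 (0.109) and SRSF2 (0.0886). Within the SCRM group the largest gaps were in SRSF11 (0.0586), TRA2A (0.0343, 312 nt exon) and SRSF6 (0.0338). RBFOXi replicate 1 is the library labelled with the cy5 tag, and the part of the tag in these gaps was not tested.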
